A study of Mus musculus with 24 samples.

Results

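The transcripts described here are those of 10 genes of the mouse pluripotency network, followed through the sorted fractions of stem cell-derived motor neuron cultures. The genes are Pou5f1, Nanog, Zfp42, Esrrb, Klf2, Klf4, Tdgf1, Dppa5a, Utf1 and Tfcp2l1. They were taken by name, and all 10 were found among the 22889 entries of the expression table. All 10 passed the filter on low values in every comparison.

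Mouse embryonic stem cells were patterned as embryoid bodies for 5 days and sorted on a motor neuron reporter, giving 24 bulk RNA-seq samples in 4 groups of 6. Oculomotor (OMN) cultures came from an Islet1-GFP line that also carried Phox2a under a nestin enhancer (NesEPhox2a), and were exposed to 250 nM of the Smoothened agonist SAG and 100 ng/ml Fgf8. Spinal (SC) cultures came from an Hb9-GFP line and were exposed to 500 nM SAG and 100 nM retinoic acid. Each culture was split into a GFP-positive and a GFP-negative fraction. Cell line, reporter and morphogens therefore changed together between OMN and SC, and their parts cannot be told apart. All samples carry the label of control, and nothing in the sources used here says how many clones stood behind each line. The labels do not state that the 6 numbers of a group were separate differentiations, so p-values measure the spread between these samples.

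The pluripotency network holds embryonic stem cells in a state from which every lineage of the embryo can form. Its transcription factors bind each other's genes and keep one another expressed, and the network is shut down when the cells commit to a lineage, neural lineages included. Cells that have not left this state can form teratomas after transplantation, which is why these transcripts are commonly used to look for undifferentiated cells in differentiated cultures.

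Levels are given in RPKM (read counts divided by transcript length and by the total of mapped reads), which can be compared between genes because length is divided out. Changes are differences in log2(RPKM + 1), so that changes of genes near or under 1 RPKM are understated. Depth, estimated from the smallest steps of the values, ran from 752529 to 7675428 mapped reads per sample, with a median of 2833427 in replicates 1 to 4 and of 6979753 in replicates 5 and 6. At those depths, 3 reads corresponded to between 0.0414 RPKM (Tfcp2l1, the longest transcript) and 6.44 RPKM (Dppa5a, the shortest) over samples and members. The reporter genes matched the sort in the OMN cultures, where Isl1 ranged from 141 to 369 RPKM in GFP-positive and from 0.696 to 1.87 RPKM in GFP-negative samples. In the SC cultures Mnx1, the gene that encodes HB9, ranged from 43.1 to 149 RPKM in GFP-positive samples and from 0.189 to 4.72 RPKM in 5 of the 6 GFP-negative samples, but stood at 69.4 RPKM in the sample labelled SC GFP-negative 4. That was above the 43.1 RPKM of the sample labelled SC GFP-positive 4, so within this pair Mnx1 went against the labels. The labels were used as given, and whether this pair was sorted as labelled was not tested, so the sign of its differences is uncertain. In SC GFP-negative 2, 3 gene models held 68.8% of the summed RPKM, against at most 17.8% in the other samples, and its median-of-ratios size factor was 0.653, against 0.725 to 1.28. In bulk samples, fewer cells that express a gene and less RNA per cell cannot be told apart.

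Spinal pair 4, the samples labelled SC GFP-positive 4 and SC GFP-negative 4, stood apart before any comparison was made. Over 7312 genes at 5 RPKM or more its 2 fractions correlated with r = 0.952 and differed by a median of 0.236 on the log2 scale, against r of 0.682 to 0.828 and medians of 0.453 to 0.900 in the other 11 pairs. Between replicates of 1 group, over 60 pairs, r ran from 0.463 to 0.973 and the medians from 0.251 to 1.32, so that the fractions of pair 4 differed by less than any of them on the second measure. Isl1 was at 7.63 and 8.56 RPKM in the GFP-positive and the GFP-negative sample of pair 4, whereas the other SC GFP-positive samples held 50.4 to 123 RPKM. Both samples of pair 4 also held high levels of the pluripotency genes. Every result below is therefore given with and without this pair where the difference matters.

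The group medians of the 10 genes were ordered as follows, with overlap between most groups. OMN GFP-positive samples held little of it and had the lowest group median for 8 of the 10 genes, the exceptions being Pou5f1 and Tdgf1, which were lowest in SC GFP-negative samples. OMN GFP-negative samples had the highest median for 8 of the 10, the exceptions being Klf2, highest in SC GFP-positive, and Klf4, highest in SC GFP-negative samples. Summed without Dppa5a, which outweighs all others, the members came to a median of 8.34 RPKM in OMN GFP-positive, 181 in OMN GFP-negative, 59.0 in SC GFP-positive and 43.9 in SC GFP-negative samples.

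**Figure D1:**
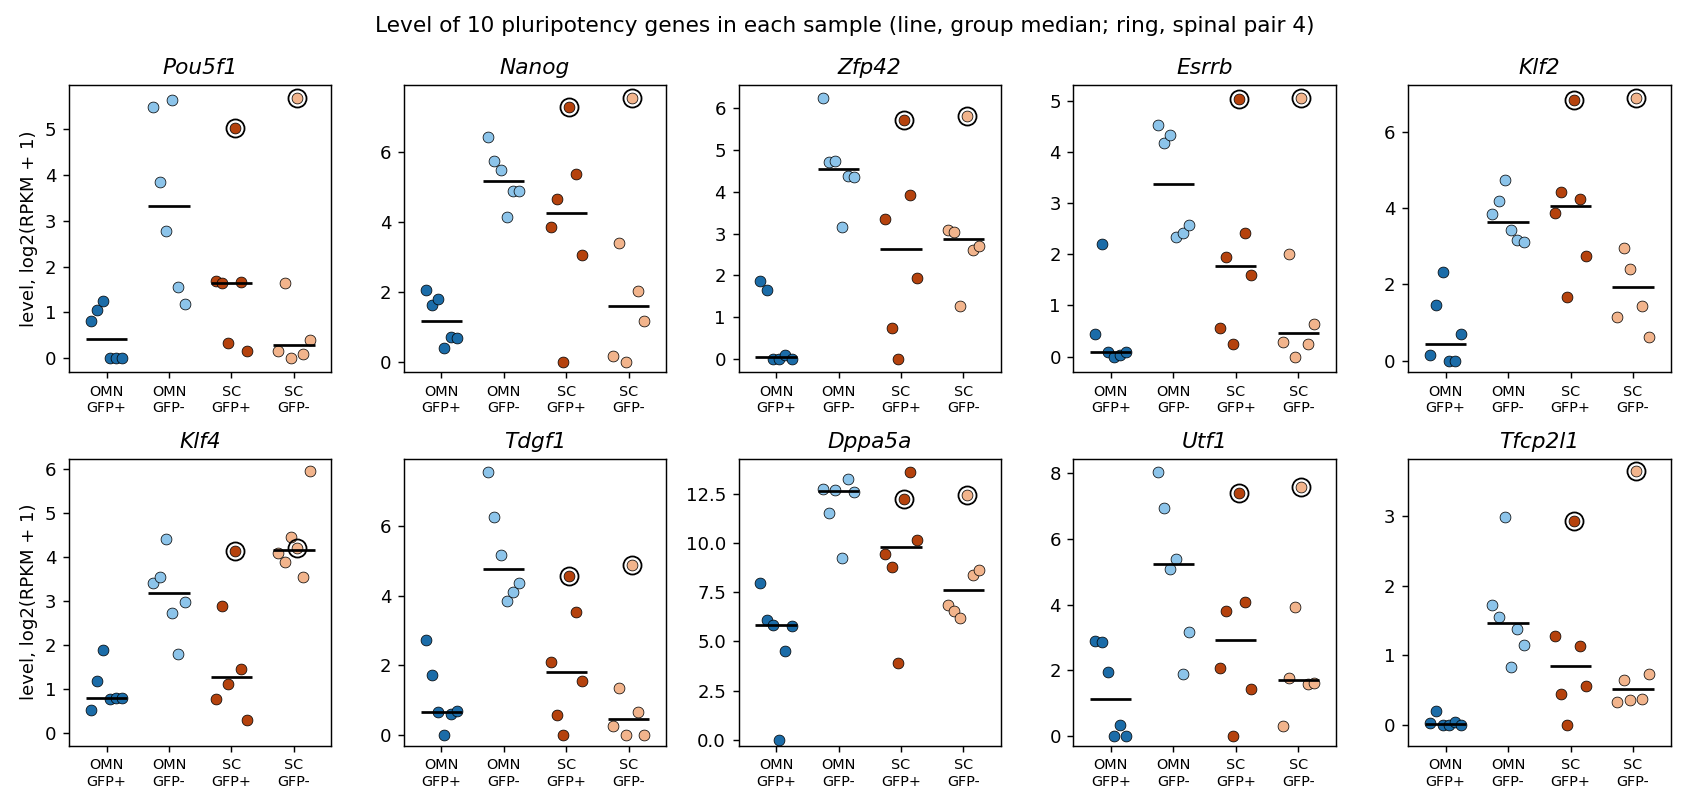
Level of each of the 10 genes as log2(RPKM + 1) in each sample, with 1 panel per gene, 6 points per group and a line at the group median. Points with a ring are the 2 samples of spinal pair 4, which are the highest of their group for 9 of the 10 genes in both spinal fractions.

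Pou5f1 (GRCm38 chr17:35506018-35510772) encodes OCT4, the POU-domain factor at the centre of the network. It was listed at 0 in 3 of 6 OMN GFP-positive samples, with a median of 0.383 and a highest value of 1.39 RPKM. In OMN GFP-negative samples it ranged from 1.29 to 49.1 RPKM with a median of 9.68. In SC GFP-positive samples it ranged from 0.116 to 31.5 RPKM (median 2.13), and in SC GFP-negative samples from 0 to 50.3 RPKM (median 0.218). The fractions overlapped in both cultures, and the highest spinal value in each fraction was that of pair 4.

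Nanog (GRCm38 chr6:122707489-122714633), a homeodomain factor that stabilises the undifferentiated state, separated the OMN fractions more clearly. It ranged from 0.315 to 3.17 RPKM (median 1.34) in OMN GFP-positive and from 16.5 to 85.4 RPKM (median 36.0) in OMN GFP-negative samples. In the spinal cultures it was at 13.5, 24.4, 0, 156, 40.5 and 7.32 RPKM in GFP-positive samples 1 to 6, and at 0.122, 9.48, 0, 185, 3.04 and 1.26 RPKM in the matching GFP-negative samples. The OMN fractions did not overlap. In the spinal cultures the GFP-positive sample was the higher one in 4 pairs, both samples of pair 3 were at 0, and pair 4 was slightly higher in its GFP-negative sample.

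Zfp42 (GRCm38 chr8:43295063-43306980), which encodes the zinc finger protein REX1, is one of the usual markers of undifferentiated mouse cells. It was at 0 in 3 OMN GFP-positive samples and reached 2.63 RPKM there, against 7.88 to 74.0 RPKM (median 22.3) in OMN GFP-negative samples. SC GFP-positive samples ranged from 0 to 50.8 RPKM (median 5.97) and SC GFP-negative samples from 1.41 to 55.2 RPKM (median 6.38). The OMN fractions did not overlap, and the spinal ones overlapped almost entirely.

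The upstream sequences of Zfp42 and Nanog are shown because they were the only members whose promoters held the octamer core TTTGCAT, the letters of the site that OCT4 and its relatives recognise. The capitals mark that core, and each sequence is the 250 bases before a RefSeq start site in GRCm38.p6. The Zfp42 bases are chr8:43307010-43307259 on the minus strand and the Nanog bases are chr6:122707239-122707488 on the plus strand.
Zfp42: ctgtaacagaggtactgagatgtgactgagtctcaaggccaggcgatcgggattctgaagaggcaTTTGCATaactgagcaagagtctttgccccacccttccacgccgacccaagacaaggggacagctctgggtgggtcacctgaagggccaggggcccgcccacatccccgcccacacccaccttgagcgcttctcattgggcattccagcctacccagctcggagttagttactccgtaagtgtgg
Nanog: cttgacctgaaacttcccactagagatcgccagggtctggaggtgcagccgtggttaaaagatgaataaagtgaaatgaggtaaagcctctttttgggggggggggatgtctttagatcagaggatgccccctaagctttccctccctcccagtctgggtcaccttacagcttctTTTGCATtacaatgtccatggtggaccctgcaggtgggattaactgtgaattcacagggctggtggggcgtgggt
The core began 185 bases before the start site in Zfp42 and 75 bases before the more upstream start site of Nanog. In Zfp42 it was part of the whole octamer (ATGCAAAT, read here as its reverse complement ATTTGCAT), and in Nanog it was not. Promoters of 300 bases, 250 before and 50 after the start site, were listed for 9 members, all but Dppa5a. On either strand the octamer was found in 1 of the 9 (Zfp42) and in 1.74% of all 32851 promoters, and the core, a part of it chosen after the promoters had been read, in 2 of the 9 and in 4.63% of all. A KLF-type motif, CCACACCC, was found in Zfp42 alone, at 75 bases before the start site, and in 3.56% of all promoters. An ESRRB-type motif, TCAAGGTCA, was found in none of the 9 and in 0.423% of all.

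Esrrb (GRCm38 chr12:86361117-86521628), an orphan nuclear receptor that sustains self-renewal, was at 0 to 3.59 RPKM (median 0.0682) in OMN GFP-positive and at 4.04 to 22.0 RPKM (median 11.0) in OMN GFP-negative samples. In SC GFP-positive samples it ranged from 0.191 to 31.7 RPKM (median 2.43) and in SC GFP-negative samples from 0 to 32.2 RPKM (median 0.393). Tfcp2l1 (GRCm38 chr1:118627945-118685168), a CP2-family factor of the naive state, had the lowest median of the 10 genes in 3 of the 4 groups, SC GFP-negative samples being the exception. Its medians were 0.0114 RPKM in OMN GFP-positive, 1.77 in OMN GFP-negative, 0.828 in SC GFP-positive and 0.432 in SC GFP-negative samples, and its highest value was 11.5 RPKM, in SC GFP-negative 4. For both genes the OMN fractions did not overlap and the spinal fractions did.

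The KLF zinc finger factors, which share binding sites with OCT4 and its partners, did not follow a single pattern. Klf2 (GRCm38 chr8:72319033-72321656) ranged from 0 to 4.02 RPKM (median 0.372) in OMN GFP-positive, from 7.59 to 25.5 (median 11.5) in OMN GFP-negative, from 2.19 to 113 (median 15.6) in SC GFP-positive and from 0.534 to 117 (median 3.00) in SC GFP-negative samples. Klf4 (GRCm38 chr4:55527143-55532466) was at 0.702, 6.35, 1.14, 16.6, 1.72 and 0.214 RPKM in SC GFP-positive samples 1 to 6 and at 16.0, 13.8, 20.9, 17.4, 10.6 and 60.7 RPKM in the matching SC GFP-negative samples. Klf4 was thus higher in the GFP-negative sample of all 6 spinal pairs, by the least in pair 4, and without pair 4 its spinal fractions did not overlap, which held in this direction for 1.46% of all genes. In OMN samples it ranged from 0.424 to 2.69 RPKM in the GFP-positive and from 2.45 to 20 RPKM (median 8.21) in the GFP-negative fraction.

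Tdgf1 (GRCm38 chr9:110939603-110946158) encodes Cripto, the membrane-anchored co-receptor of Nodal. It ranged from 0 to 5.59 RPKM (median 0.602) in OMN GFP-positive and from 13.3 to 185 RPKM (median 27.0) in OMN GFP-negative samples, with no overlap. Its spinal medians were 2.60 RPKM in GFP-positive and 0.402 RPKM in GFP-negative samples, with highest values of 22.7 and 28.5 RPKM, both in pair 4.

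Dppa5a (GRCm38 chr9:78367052-78368177), which encodes an RNA-binding protein with a KH domain, was by far the most abundant of the 10. It was at 246, 66.2, 56.2, 0, 22.0 and 54.5 RPKM in OMN GFP-positive samples 1 to 6 and at 6779, 2885, 6483, 593, 9806 and 6190 RPKM in the matching OMN GFP-negative samples. Its highest value of all, 12328 RPKM, was in SC GFP-positive 5, a sample in which the 9 other members summed to 108 RPKM. In that sample the 10 genes held 2.82% of the summed RPKM, the largest share of the 24 samples, while OMN GFP-negative samples ranged from 0.155% to 1.84%. Utf1 (GRCm38 chr7:139943789-139945112), which encodes a chromatin-associated protein of undifferentiated cells, ranged from 0 to 6.50 RPKM in OMN GFP-positive and from 2.70 to 263 RPKM (median 37.2) in OMN GFP-negative samples, with overlap. Its spinal values ran from 0 to 169 RPKM (median 8.08) in GFP-positive and from 0.223 to 191 RPKM (median 2.24) in GFP-negative samples. Nanog, Zfp42, Tdgf1 and Dppa5a have annotated pseudogene copies, and how reads shared with copies were assigned is not given in the sources used here, so the levels of these 4 genes are less certain.

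Within the OMN cultures, the question was how the fraction sorted for the reporter differed from the rest of the same embryoid bodies. All 10 genes were lower in the GFP-positive sample of all 6 pairs. In the fit of 24 samples with limma, 7 of the 10 fell at an adjusted p under 0.05, where 2.34% of the 22179 genes tested fell (6.15% changed in either direction). The median change was -3.36 on the log2 scale over the members and 0.00 over all genes. The steepest fall was that of Dppa5a (log2 change -6.96, SE 1.37, limma adjusted p = 0.0025), followed by Tdgf1 (-4.13, SE 0.84, adjusted p = 0.00322), Nanog (-4.05, SE 1.05, adjusted p = 0.0195) and Zfp42 (-3.98, SE 0.79, adjusted p = 0.00264). Klf2 (-2.96, adjusted p = 0.034), Esrrb (-2.91, adjusted p = 0.0284) and Klf4 (-2.16, adjusted p = 0.0172) fell as well. Pou5f1 (-2.90), Utf1 (-3.75) and Tfcp2l1 (-1.56) had adjusted p of 0.07, 0.0717 and 0.0702. In 7 members, Dppa5a, Esrrb, Klf2, Nanog, Tdgf1, Tfcp2l1 and Zfp42, every GFP-positive sample was below every GFP-negative one, as was so for 2.48% of all genes.

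With the pair of fractions, matched by sample number only, as a block, all 10 genes fell (8.21% of all genes did). The limma adjusted p was 0.00287 for Pou5f1, 0.00292 for Utf1 and 0.00254 for Tfcp2l1. All 10 also fell without spinal pair 4 (3.98% of all genes), which enters this comparison only through the shared estimate of the spread. The call of Esrrb was lost without OMN GFP-positive 3, 4, 5 or 6 or OMN GFP-negative 1, 2 or 3, with adjusted p of 0.0555, 0.0607, 0.058, 0.057, 0.0707, 0.0667 and 0.0654. That of Klf2 was lost without OMN GFP-positive 1, 4, 5 or 6 or OMN GFP-negative 1, 2 or 3, with adjusted p of 0.0613, 0.0762, 0.0733, 0.0605, 0.0626, 0.0704 and 0.0765. In replicates 5 and 6, which were deeper, the changes ran from -7.77 for Dppa5a to -1.24 for Tfcp2l1. There 7 of the 10 were called (2.28% of all genes fell). In replicates 1 to 4 the changes ran from -6.56 for Dppa5a to -1.72 for Tfcp2l1. Only Klf4 was called there (limma adjusted p = 0.0482, 0.549% of all genes fell). Spinal pair 4 enters the fit of replicates 1 to 4 through the shared spread. The paper reports different sequencer models and read lengths without saying which samples had which. The parts of depth, sequencing run, sample number and pair 4 in this contrast were not tested.

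**Figure D2:**
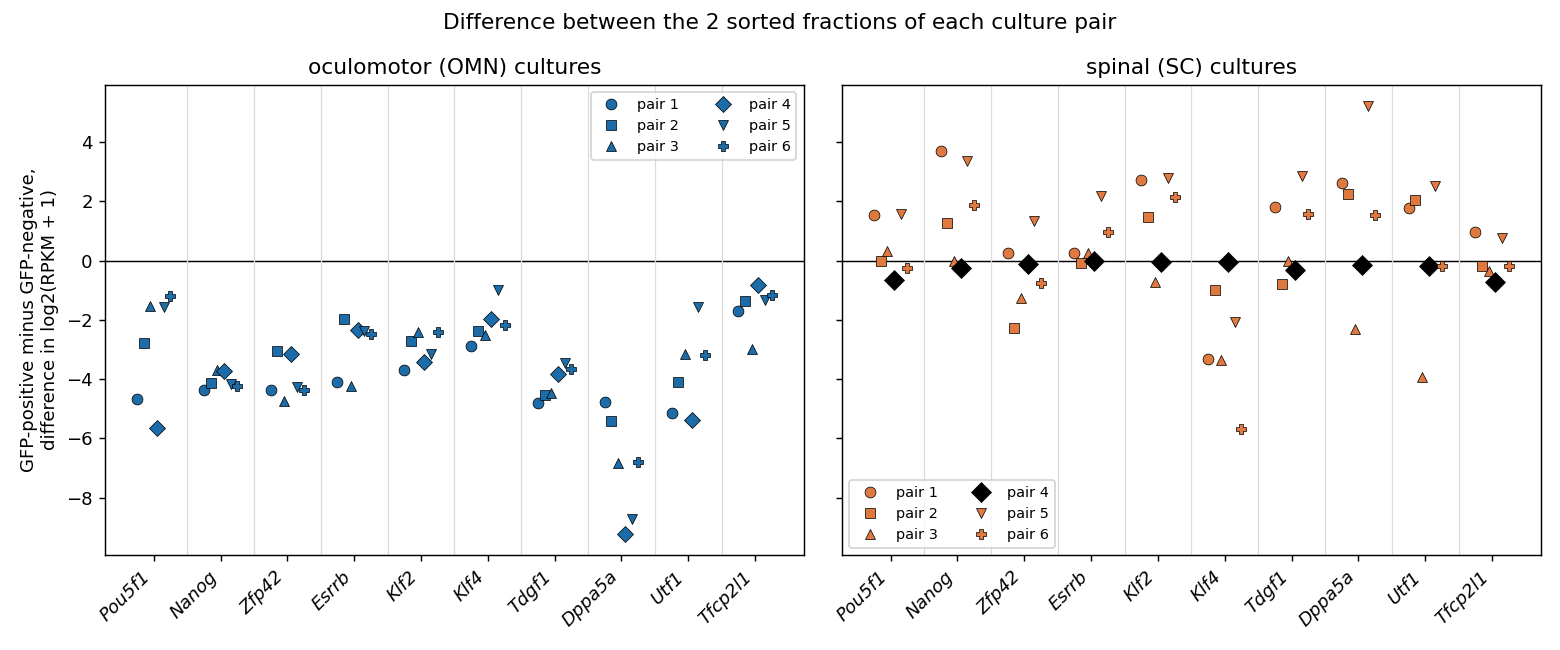
GFP-positive minus GFP-negative difference in log2(RPKM + 1) for each gene and each of the 6 pairs of a culture, OMN on the left and SC on the right, with a line at 0. All OMN points lie under 0, while the spinal points lie on both sides except for Klf4, and the black diamonds of spinal pair 4 stay within 0.714 of 0.

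Markers of other cells moved with this step and are given as measured. All 5 neuronal markers (Tubb3, Stmn2, Nefl, Nefm and Map2) rose in the OMN GFP-positive fraction, where 845 of 22179 genes rose. Their summed level ranged from 1150 to 1700 RPKM there and from 15.3 to 57.3 RPKM in OMN GFP-negative samples. Of 5 proliferation markers, Ccnb1 and Top2a fell, and the summed level ranged from 20.5 to 178 RPKM in GFP-positive and from 161 to 266 RPKM in GFP-negative samples. Their part in the fall of the 10 genes was not tested.

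In the spinal cultures the same step looked different. Only Klf4 was called, and it fell in GFP-positive samples (log2 change -2.58, SE 0.54, limma adjusted p = 0.0137), where 0.83% of all genes fell and 1.23% changed in either direction. Of the other 9 genes, 8 had positive estimates, the largest those of Nanog (1.66, 95% interval -0.50 to 3.82), Dppa5a (1.52, -1.32 to 4.36) and Klf2 (1.39, -0.34 to 3.12). These intervals reach from a decrease to a rise larger than many of the changes in the OMN cultures. The data therefore show neither a rise nor that the spinal fractions were alike. The intervals of Pou5f1 (-1.52 to 2.36) and Utf1 (-2.18 to 2.87) were as wide.

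The spinal pairs differed among themselves. In pairs 1 and 5, 9 of the 10 genes were higher in the GFP-positive sample, the exception being Klf4, with median differences of 1.65 and 2.34 on the log2 scale. Pairs 2 and 6 were split 5 to 5, and in pair 3 the GFP-positive sample was higher for 2 genes, lower for 6 and equal for 2. In pair 4 all 10 genes were slightly higher in the GFP-negative sample, with a median difference of -0.17. The samples of pair 3 were shallow, with 1730819 and 752529 mapped reads, and 5 and 4 members were listed at 0 in them.

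Without spinal pair 4 Klf4 fell by 3.09 (adjusted p = 0.000798, 1.54% of all genes fell), and Nanog (2.04, adjusted p = 0.214) and Klf2 (1.68, adjusted p = 0.138) were not called. In the paired fit of all samples Klf4 kept its call (adjusted p = 0.0255, 1.6% of all genes fell). With the pairs as a block and pair 4 left out, a combination chosen after seeing the data, Nanog (adjusted p = 0.0143) and Klf2 (adjusted p = 0.0425) were higher in the GFP-positive fraction, where 3.05% of all genes rose, and Klf4 was lower (adjusted p = 0.0037), where 2.62% of all genes fell. The GFP-positive sample was the higher one for Nanog in 4 of those 5 pairs, with the fifth at 0 in both samples, and for Klf2 in 4 of 5. The call of Klf4 was lost when the spinal samples were fitted alone (adjusted p = 0.212). It was also lost within replicates 1 to 4 (-1.94, adjusted p = 0.364) and within replicates 5 and 6 (-3.88, adjusted p = 0.0848).

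**Figure D3:**
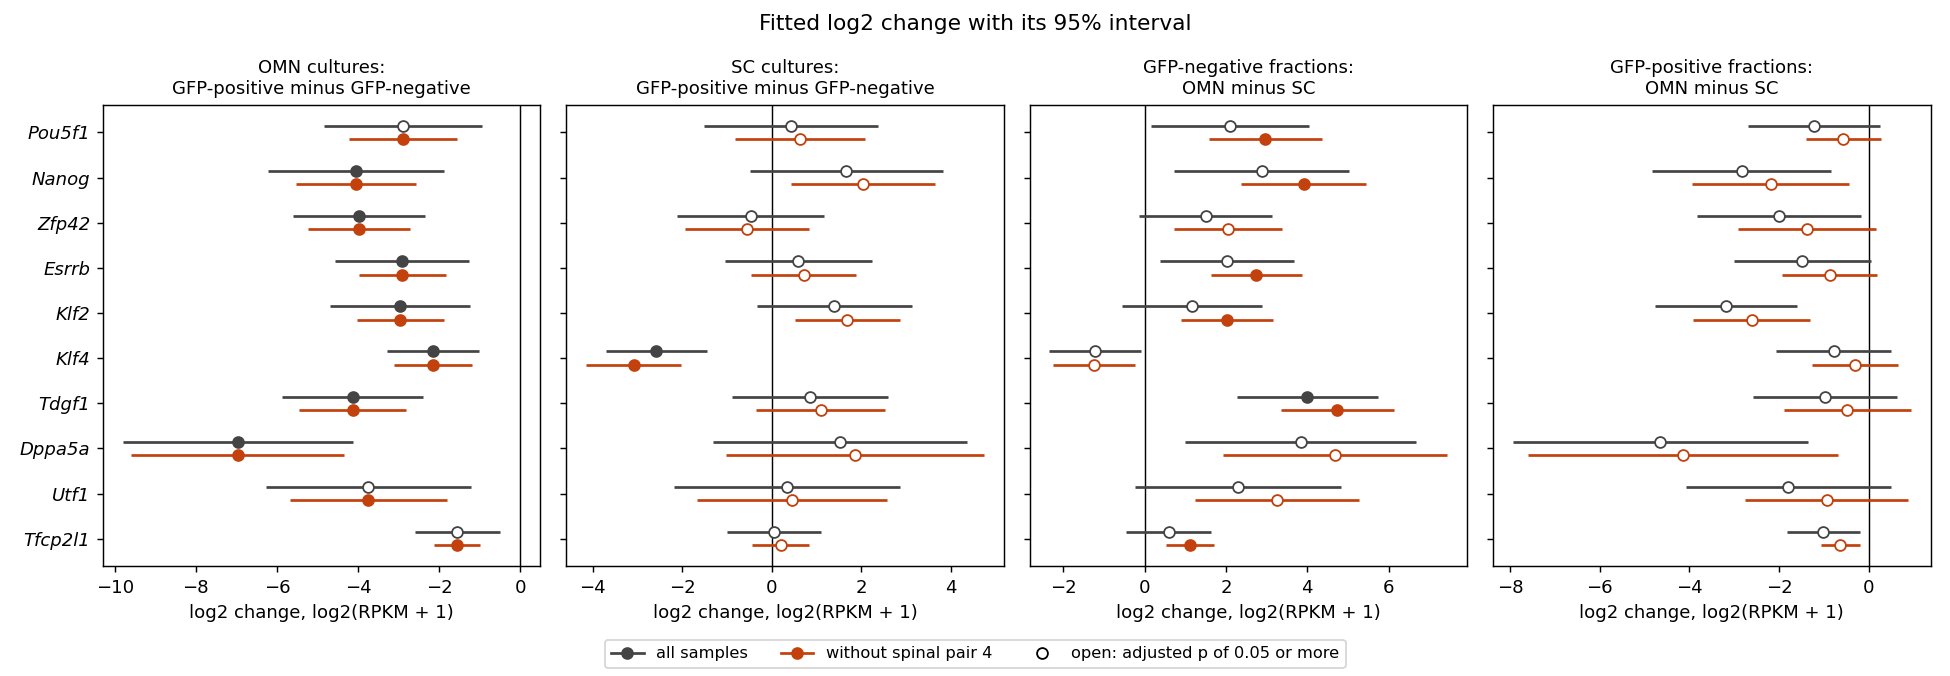
Fitted log2 change of each gene with its 95% interval in 4 comparisons, over all samples (grey) and without spinal pair 4 (orange). Filled points have a limma adjusted p under 0.05. All OMN fraction estimates lie under 0, and Klf4 is the one filled point of the spinal fraction comparison.

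Markers of extraembryonic endoderm, a lineage that embryoid bodies also form, moved with Klf4 in these samples. Of the 5 markers, Gata4 (-3.13), Gata6 (-3.58), Sox17 (-2.40) and Ttr (-3.44) fell in the SC GFP-positive fraction on the log2 scale, and Afp (-0.45) was not called. Their summed level ranged from 4.08 to 270 RPKM in SC GFP-negative samples and from 0.662 to 9.17 RPKM in SC GFP-positive samples, in all of which Afp was at 0. It was highest in SC GFP-negative 6, which also had the highest Klf4, and lowest of its group in SC GFP-negative 4, at 4.08 RPKM, where Klf4 stood at 17.4 RPKM. The summed level was 5.06 to 16.1 RPKM in OMN GFP-negative samples and at most 0.950 RPKM in OMN GFP-positive ones. The part of these markers in the Klf4 difference was not tested.

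**Figure D4:**
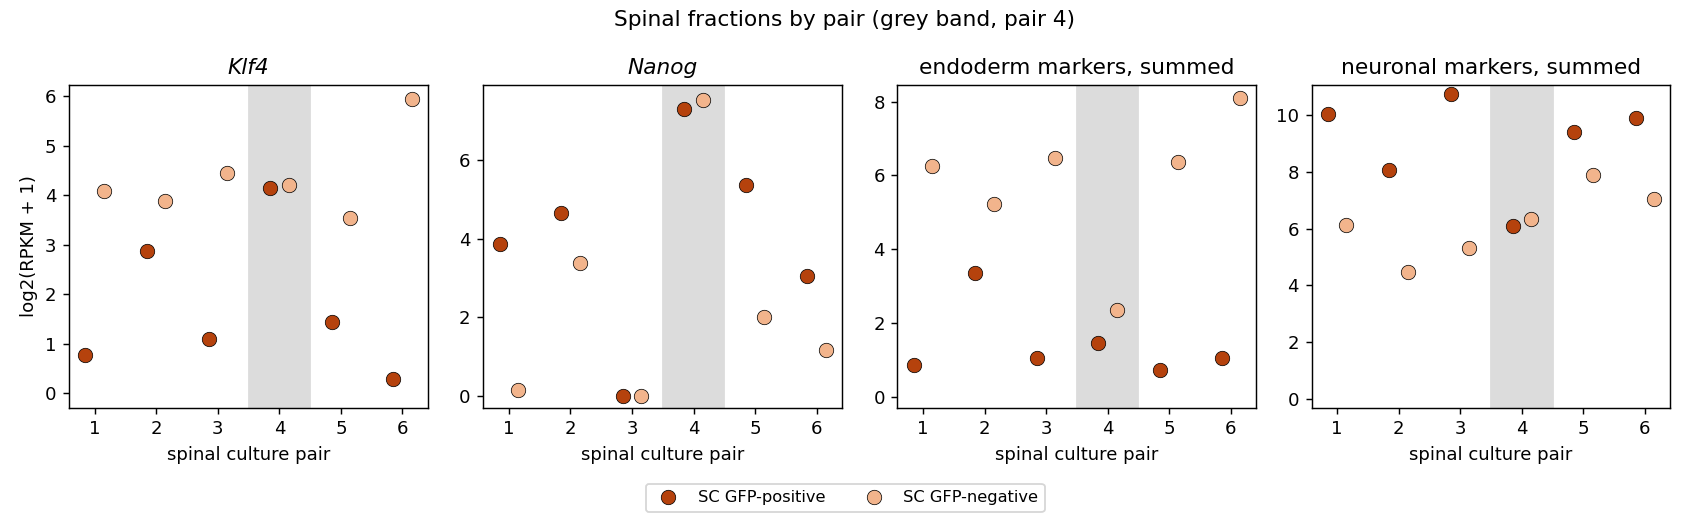
Klf4, Nanog and the summed levels of 5 endoderm and 5 neuronal markers, each as log2(RPKM + 1), in the GFP-positive and GFP-negative sample of each spinal pair. Endoderm markers and Klf4 are higher in the GFP-negative sample of every pair, and in pair 4 (grey band) the 2 fractions lie close together in all 4 panels.

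Whether the fraction step itself differed between the cultures was tested as an interaction. In the fit without pairing none of the 10 genes passed, where 0.32% of all genes did (13 of 22179 genes, or 0.0586%, with a more negative difference in OMN cultures). At an unadjusted p under 0.05 limma gave 9 of the 10 members and 1582 of 22179 genes. The estimates were nevertheless large, -8.49 for Dppa5a (adjusted p = 0.0572), -5.72 for Nanog (0.114), -4.99 for Tdgf1 (0.0698) and -4.35 for Klf2 (0.139), while that of Klf4 was 0.43 (0.945).

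The pairing, which rests on the sample numbers, changed this result. With the pair of fractions as a block, 7 of the 10 genes passed, all with a more negative GFP-positive minus GFP-negative difference in OMN than in SC cultures, as did 1.19% of all genes. They were Nanog (adjusted p = 0.000788), Tdgf1 (0.000877), Dppa5a (0.00217), Klf2 (0.00245), Esrrb (0.00423), Zfp42 (0.00577) and Pou5f1 (0.0454). Tfcp2l1 (0.0631), Utf1 (0.0559) and Klf4 (0.829) did not pass. Of the 7 that passed, 6 had a positive estimate in the spinal cultures, so that the signs were opposite, and Zfp42 a negative one. Without spinal pair 4 and with no block, 6 genes passed (0.44% of all genes did), namely Nanog, Klf2, Tdgf1, Esrrb, Dppa5a and Tfcp2l1. With both the block and the omission 8 passed, all but Utf1 and Klf4, beside 1.16% of all genes. Single samples also moved this count, which was 5 without SC GFP-negative 4 (0.427% of all genes passed in that direction), 3 without SC GFP-positive 3 (0.222%), and 1 without OMN GFP-positive 1 (0.0543%) or without OMN GFP-negative 4 (0.0633%).

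The GFP-negative fractions of the 2 cultures were compared next. In all samples only Tdgf1 was higher in OMN GFP-negative than in SC GFP-negative samples (log2 change 4.00, SE 0.84, limma adjusted p = 0.0178), where 0.41% of all genes were higher and 0.96% changed in either direction. Its call was lost without OMN GFP-negative 2 (adjusted p = 0.0534), without SC GFP-negative 6 (0.0508), in replicates 1 to 4 (0.261), and when the GFP-negative samples were fitted alone (0.0626). Nanog (2.88, adjusted p = 0.252), Pou5f1 (2.09, 0.398) and Dppa5a (3.84, 0.24) were not called, and Klf4 had a negative estimate (-1.21, 0.399). The endoderm markers Gata4 (-2.20), Gata6 (-2.68) and Sox17 (-1.86) were also lower in OMN GFP-negative samples, and their part in the Klf4 estimate was not tested. Within replicates 1 to 4 the change of Nanog was 2.67 and within replicates 5 and 6 it was 3.29.

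The result of this comparison depended on spinal pair 4. SC GFP-negative 4 held the highest level of its group for 9 of the 10 genes, and the pair was known beforehand to stand apart. Leaving the pair out therefore lowers the SC side for those 9, and the calls without it are descriptive. Without pair 4, 6 genes were higher in OMN GFP-negative samples, Tdgf1 (4.74, adjusted p = 0.000181), Nanog (3.91, 0.00402), Esrrb (2.75, 0.00553), Pou5f1 (2.96, 0.016), Tfcp2l1 (1.12, 0.0382) and Klf2 (2.03, 0.0452), where 1.2% of all genes were higher. Dppa5a (4.69, 0.0618), Utf1 (3.26, 0.0805) and Zfp42 (2.05, 0.0955) were not called. Every OMN GFP-negative sample was then above every SC GFP-negative one for Dppa5a, Esrrb, Klf2, Nanog, Tdgf1, Tfcp2l1 and Zfp42, as was so for 1.17% of all genes, and with pair 4 for none of the 10 (0.397% of all). Leaving out SC GFP-negative 4 alone gave 3 calls, Tdgf1, Nanog (adjusted p = 0.0141) and Esrrb (0.0344), where 0.827% of all genes were higher. In the fit without pair 4 markers of other cells were called as well. Dnmt3b (2.39) was higher in OMN GFP-negative samples, and the neuronal genes Nefl (-2.34) and Nefm (-2.33), the endoderm genes Gata4, Gata6, Sox17 and Ttr (-2.45), and Kit (-1.63) were lower. Their part in the differences of the 10 genes was not tested.

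Between the GFP-positive fractions, the cells sorted for the reporters, all 10 genes had lower estimates in OMN samples and none passed. There 0.603% of 19240 genes changed and 0.249% were lower. At an unadjusted p under 0.05 limma gave 5 of the 10 members and 1951 of 19240 genes. The largest differences were those of Dppa5a (-4.65, adjusted p = 0.262), Klf2 (-3.18, 0.0823) and Nanog (-2.84, 0.255). Dppa5a, the most abundant, ranged from 0 to 246 RPKM in OMN and from 14.0 to 12328 RPKM in SC GFP-positive samples, so that the groups overlapped. No member separated them, while 0.696% of all genes lay wholly lower in OMN samples. Without spinal pair 4 none passed either (0.303% of all genes were lower), with Klf2 at -2.61 (adjusted p = 0.0896). An unadjusted limma p under 0.05 was then given to 4 of the 10 members and to 1956 of 18794 genes. Without SC GFP-positive 3, which held the lowest level of its group for 8 of the 10 genes, Klf2 (-3.64, adjusted p = 0.0242) and Nanog (-3.65, adjusted p = 0.0213) were called, where 0.525% of all genes were lower. Within replicates 1 to 4 the change of Klf2 was -3.21 and within replicates 5 and 6 it was -3.14.

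Other genes of the pluripotency programme fell in the same OMN comparison. Of 24 further genes listed for it, 15 fell and none rose in the OMN GFP-positive fraction, where 2.34% of all genes fell, with a median change of -2.85 against 0.00 over all genes. The largest falls were those of Fbxo15 (-4.22), an F-box gene bound by OCT4, Dppa3 (-4.17), Lefty1 (-4.03), an inhibitor of Nodal signalling, Dppa4 (-3.78) and L1td1 (-3.70), with limma adjusted p of 0.00246, 0.0187, 0.0114, 0.0196 and 0.000526. Sox2, the partner of OCT4, also fell in that comparison (-2.97) but was abundant in both GFP-negative groups, at 36.6 to 118 RPKM in OMN and 35.0 to 137 RPKM in SC samples. It is expressed in neural progenitors too. In the SC fractions none of the 24 was called (median 0.38). Between the GFP-negative fractions only Fgf4, a growth factor gene controlled by OCT4 and SOX2, was higher in OMN samples (2.97, adjusted p = 0.0389), and 9 of 24 were without spinal pair 4 (0.41% and 1.2% of all genes). Between the GFP-positive fractions and for the interaction none of the 24 was called, and without pair 4 none and 10 were (0.303% and 0.44% of all genes in that direction).

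Genes of the epiblast, the state that follows the naive one, made up a shorter list, of 7. Of these, Otx2 (-3.53), Dnmt3b (-2.67), Fgf5 (-1.94) and Mixl1 (-0.51) fell in the OMN GFP-positive fraction, where 2.34% of all genes fell. Their limma adjusted p were 1.89e-07, 0.0118, 0.0336 and 0.0164. Otx2, which also marks the forebrain and midbrain, ranged from 8.84 to 32.2 RPKM in OMN GFP-negative samples and from 0 to 0.900 RPKM in SC GFP-negative samples, a log2 difference of 4.17 (adjusted p = 4.83e-08). In that comparison 0.41% of all genes were higher in OMN samples. Otx2 was also the one epiblast gene with a called interaction (-3.86), where 0.0586% of all genes passed in that direction. No epiblast gene was called between the spinal fractions or between the GFP-positive fractions.

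Across the 24 samples the members rose and fell together, apart from Klf4. The median of a gene's Pearson correlations with the other 9 was between 0.741 and 0.849 for the others and 0.380 for Klf4. Among the genes outside the 10 whose levels were most like the members' mean were Gdf3 (r = 0.943), Etv5 (r = 0.937), Nodal (r = 0.937) and Hsf2bp (r = 0.933), out of 12595 genes at 1 RPKM or more in at least 6 samples. Gdf3 and Nodal belong to the 24 further pluripotency genes. The points share cultures and depth, and 2 of the 24 are the samples of spinal pair 4, so these values describe the samples and carry no p.

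Markers of other cell types are given as measured. Of 5 germ cell markers none was called over all samples in the 5 comparisons, Kit was called in the GFP-negative and the spinal fraction comparison without spinal pair 4, and their summed level ran from 1.23 to 42.5 RPKM over the 24 samples, with the highest sums, 35.5 and 42.5 RPKM, in the GFP-positive and GFP-negative sample of pair 4. Of 6 feeder fibroblast markers none was called, and their summed level was 0.103 to 22.7 RPKM. Of 4 endothelial markers none was called, with sums of 0.0346 to 10.1 RPKM and Cdh5 at 0 in all OMN samples. The endothelial sums were highest in pair 4 (10.1 and 9.82 RPKM), where Pecam1 made up nearly all of them. Of 7 neural progenitor markers, with sums of 50.8 to 2409 RPKM, only Nkx6-1 was called, higher in the OMN GFP-positive fraction. Of 7 motor neuron markers 5 rose in OMN and 3 in SC GFP-positive samples, where 845 and 88 of 22179 genes rose. They include the genes behind the sort, Isl1 in OMN and Mnx1 in SC cultures, whose rise follows from the sorting itself.

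In spinal pair 4 the 9 members other than Dppa5a summed to 598 RPKM in the GFP-positive and 688 RPKM in the GFP-negative sample, and Dppa5a was at 4850 and 5434 RPKM. In the other spinal samples that sum ran from 3.77 to 108 RPKM in the GFP-positive and from 23.4 to 71.6 RPKM in the GFP-negative fraction. The largest sum in OMN GFP-negative samples was 698 RPKM. Neuronal markers summed to 67.3 and 79.4 RPKM in pair 4, against 267 to 1698 RPKM in the other SC GFP-positive samples, and endoderm markers to 1.74 and 4.08 RPKM. Proliferation markers summed to 301 and 315 RPKM in the GFP-positive and GFP-negative sample of pair 4, above the other spinal samples, where the sums ran up to 145 and 210 RPKM. The germ cell and endothelial sums were also highest there, and the part of these markers in the high levels of the 10 genes was not tested. The motor neuron markers summed to 59.9 RPKM in the GFP-positive sample of pair 4 and to 89.6 RPKM in its GFP-negative sample.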

How the data were processed

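RNA-seq libraries were made from sorted cells by SMART-seq2 with Tn5 tagmentation, without molecular identifiers. Reads were aligned by the authors with HISAT2 to mm10 (version 2.0.3 in the submitters' processing notes), who then computed the deposited RPKM values, the only unit in the table, with rpkmforgenes. Their own comparisons used DESeq2 1.12.4 on counts, which were not used here.

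Genes above 0 RPKM in at least 2 fitted samples were compared as log2(RPKM + 1), with a pseudocount of 1, in R 4.3.3 with limma 3.58.1 (moderated linear fits with a mean-variance trend, Benjamini-Hochberg adjustment over all genes, threshold 0.05, intervals of 95%). The GFP-positive fractions were compared in a fit of 12 samples, and the rest in a fit of 24 samples in 4 groups. The fit of 24 samples was tried on simulated data for the OMN fraction comparison only. Of 200 genes changed by 2 on the log2 scale 118 were called, and of 200 changed by 4, 179 were. A gene that was not called may therefore still have changed. The simulated samples varied independently, with no pairs. The fit of 12 samples, the pair block and the interaction were not simulated. Fractions with the same culture and number deviated together from their group means. The r was 0.371 to 0.721 in OMN and 0.410 to 0.656 in SC cultures. Such fractions were treated as pairs of 1 culture in an alternative fit. The r between fractions of different numbers was not computed, so these values cannot show that equal numbers mark 1 culture. Depth also differed between replicate numbers, and its part in these r was not tested. Depth was estimated from the step of 1 read in genes with a single transcript. Between 95.9% and 97.8% of values under 10 reads were whole numbers of reads within a tolerance of 2%. This checks the estimated depth and says nothing about the spread between samples. Positions come from GENCODE M21 and promoters from RefSeq, both GRCm38. Figures and counts used Python 3.11.15, numpy 2.4.6, pandas 2.3.3, scipy 1.17.1 and matplotlib 3.10.9.

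All 10 members were named. Of the further pluripotency and epiblast genes, at most the 5 called genes with the largest change in each direction of each comparison were named, as were the 5 genes most like the members over samples, of which 1 is not reported here, and Mnx1 and Isl1. Other genes were named as markers. The members and lists were chosen with earlier results of these data known.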

Additional observations from a re-analysis of the deposited data

Results flagged for a closer look

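Single samples stood away from their group of 6 in 7 of the 40 combinations of gene and group tested, by a gap to the nearest sample that exceeded 0.625 of the group's range on the log2(RPKM + 1) scale. Chance gives about 1 in 20, but the genes move together and spinal pair 4 was already known to stand apart, so the number is a description. The samples of spinal pair 4 made up 5 of the 7. In the GFP-negative sample of that pair these were Pou5f1 at 50.3 RPKM, Klf2 at 117 RPKM, Tdgf1 at 28.5 RPKM and Tfcp2l1 at 11.5 RPKM, and in its GFP-positive sample Pou5f1 at 31.5 RPKM. The other 2 were in OMN GFP-positive 2, with Esrrb at 3.59 RPKM and Tfcp2l1 at 0.144 RPKM.

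The difference between fractions was not the same in both cultures for 7 genes in the limma fit with the pair of fractions as a block. The differences between the 2 steps on the log2 scale were -8.49 for Dppa5a, -5.72 for Nanog, -4.99 for Tdgf1, -4.35 for Klf2, -3.50 for Zfp42, -3.50 for Esrrb and -3.32 for Pou5f1. In the fit without the block none of these 7 passed.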

How the results depend on the processing

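Counts of called members changed with the settings as follows, and the calls over all genes tested, in brackets, changed as well. In the OMN fraction comparison the count was 7 (519 of 22179 genes fell). It became 10 with a pseudocount of 0.1 (691 of 22179) and a filter of 1 RPKM in 6 samples (628 of 12597). It was also 10 with median-of-ratios scaling (729 of 22179) and sample quality weights (2063 of 22179). The same held with the pair block (1821 of 22179), without pair 4 (869 of 21837) and with the OMN samples alone (1144 of 18932). In replicates 1 to 4 it was 1 (115 of 20942). With single samples left out it was 5 to 10 (313 of 22141 to 647 of 22037). In the SC fraction comparison the count was 1 (184 of 22179 genes fell). It became 0 in replicates 1 to 4 (1 of 20942) and in replicates 5 and 6 (191 of 18652). It was also 0 with the spinal samples alone (3 of 20877). With the block and without pair 4 it was 3 (572 of 21837 fell and 666 rose). It stayed at 1 when single samples were left out (133 of 22096 to 301 of 22037 fell). Between GFP-negative fractions the count was 1 (91 of 22179 genes were higher). It became 3 with sample quality weights (168 of 22179) and 6 without pair 4 (263 of 21837). It was 0 in replicates 1 to 4 (22 of 20942) and with the GFP-negative samples alone (26 of 20589). With single samples left out it was 0 to 3 (48 of 21981 to 182 of 22006). Between GFP-positive fractions the count was 0 (48 of 19240 genes were lower). It became 1 with a pseudocount of 0.1 (128 of 19240) and with a filter of 1 RPKM in 6 samples (68 of 10717). It was also 1 with quality weights (140 of 19240). With single samples left out it was 0 to 2 (26 of 19123 to 100 of 19045). The interaction count was 0 (13 of 22179 genes had a more negative difference in OMN cultures). It became 2 with the filter of 1 RPKM in 6 samples (30 of 12597). With the pair block it was 7 (264 of 22179), without pair 4 it was 6 (96 of 21837) and with both 8 (253 of 21837). It was 1 with median-of-ratios scaling, 5 with quality weights and 2 in replicates 5 and 6, for which the calls over all genes are not given here. With single samples left out it was 0 to 5 (94 of 22006 where it was 5). The block on the replicate number alone gave 10, 1, 1, 0 and 0 calls in the order of these comparisons. For the first 4 of them, 1066 and 262 of 22179 genes fell, 282 of 22179 were higher and 28 of 19240 were lower.

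Signs changed for some SC fraction differences that were not called. Zfp42 was 0.28 in replicates 5 and 6, and Utf1 and Tfcp2l1 were -0.0688 and -0.0796 in replicates 1 to 4. With single samples left out they ran from -0.23 to 1.29 (Pou5f1), -1.09 to 0.0686 (Zfp42), -0.0219 to 1.33 (Esrrb), -0.51 to 1.30 (Utf1) and -0.33 to 0.57 (Tfcp2l1). The Klf4 interaction was -0.50 in replicates 1 to 4. Apart from single omissions, 511 changes of single members kept their direction and side of the threshold, 71 passed it newly and 12 no longer did. The causes were not tested. Count-based tests were not run, since no counts were used. Depth limits what a value of 0 can show. For members listed at 0, 3 reads were worth from 0.046 RPKM (Tfcp2l1 in OMN GFP-positive 6) to 3.43 RPKM (Dppa5a in OMN GFP-positive 4).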
